A study of Mus musculus with 30 samples.

Results

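The genes described here are 49 brain extracellular matrix genes, taken as a named list from the count tables of the subventricular zone (SVZ) and the striatum. It was drawn up with earlier results of these data known. The list holds the laminins and their basement membrane partners, the lecticans with their link proteins and tenascins, hyaluronan enzymes, small leucine-rich proteoglycans, glypicans, syndecans, testicans and SPARC proteins, and 4 further glycoproteins. All 49 were found by symbol among 53278 genes in the SVZ table and among 50508 in the striatum table. Genes over 1 CPM (counts scaled to a common library size) in at least 3 libraries were tested, which kept 47 members among 16375 genes in the SVZ and 44 members among 15419 genes in the striatum. Has2 and Gpc2 were not tested in the SVZ, and Lama3, Has2, Lum, Gpc2 and Frem1 were not tested in the striatum.

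RNA came from dissected SVZ and striatum of 15 adult C57Bl/6 mice, with 1 library per mouse and tissue. NestinTK+ mice carry a viral thymidine kinase driven by the second intron enhancer of Nestin, which is active in neural precursors but not in them alone, and ganciclovir (GCV) kills dividing cells that carry the enzyme. GCV or phosphate-buffered saline (PBS) was given for weeks through a subcutaneous pump, and NestinTK- mice were wild-type littermates. The ablated group was NestinTK+GCV+ (n = 5), and the 10 controls were NestinTK-GCV+ (n = 3), NestinTK-PBS+ (n = 3) and NestinTK+PBS+ (n = 4). The values of a group are always given in the same order, from its mouse 1 to its last mouse. Both tissues share the same mice. The libraries of the GCV mice were numbered before those of the PBS mice, so that drug and order of numbering cannot be told apart. The mice themselves carry numbers of a lower and a higher series. All NestinTK-PBS+ mice are of the lower series and all ablated mice of the higher. The NestinTK-GCV+ and NestinTK+PBS+ mice are of the higher series except for 1 mouse in each group. Comparisons with NestinTK-PBS+ mice are therefore largely comparisons between the series as well.

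The depth was about 8360810 to 9595100 counts per ablated and 8947140 to 21056000 per control SVZ library, as rounded totals. In the striatum it was about 2626960 to 3371030 counts per ablated and 2780470 to 4693440 per control library. The ablated libraries thus tended to be shallower in both tissues. In the SVZ, 1 count was worth 0.107 to 0.139 CPM in ablated and 0.0481 to 0.110 CPM in control libraries. The part of depth in zeros and low counts was not tested. The SVZ libraries are labelled as neural precursor cells, but 9 spiny neuron markers summed to between 3836 and 12461 CPM in each of them. As a check of the ablation, the 9 neuroblast markers summed to 136 to 261 CPM in ablated and 205 to 638 CPM in control SVZ, and 5 of them were called lower by the rule given below. SVZ libraries of 3 controls (NestinTK-PBS+ mice 1 and 2 and NestinTK+PBS+ mouse 1) had over 1% of their counts on the choroid plexus transcript Ttr. Their 6 choroid plexus markers summed to 46473, 102166 and 102627 CPM, against 779 CPM or less elsewhere, and 3 of these 6 markers were called lower in ablated SVZ. The SVZ library of ablated mouse 2 and the striatum library of NestinTK+PBS+ mouse 4 had the lowest spiny neuron sums of their tissues, and the latter had choroid plexus markers at 1414 CPM, against 47.1 CPM or less in the other striatum libraries. Ependymal markers summed to 20.3 to 235 CPM in ablated and 85.2 to 314 CPM in control SVZ with 2 of 6 called lower, and 1 of 8 mural markers was called lower; their part in the values of the members was not tested. In bulk tissue, fewer cells of a type and less RNA per cell cannot be told apart.

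As background, the adult brain holds little fibrillar collagen, and its matrix is built on hyaluronan, a sugar chain made at the cell surface by hyaluronan synthases. Lecticans (aggrecan, brevican, neurocan and versican) bind hyaluronan, link proteins of the Hapln family hold the complex together, and tenascins cross-link it, and around some neurons, many of them fast-spiking interneurons, these parts form the perineuronal net. Blood vessels, pia and the ventricular wall instead have basement membranes of laminins, nidogens, perlecan and agrin, while small leucine-rich proteoglycans in the brain come mainly from fibroblasts of the meninges and vessels.

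In the SVZ, 4 members were called, ablated mice against the 10 controls, by the study's own limits: a nominal p of 0.01 or less in edgeR's quasi-likelihood test together with a 2-fold change or more. Frem1, Prelp and Hyal2 were lower and Fn1 was higher. Upstream sequence is shown for Prelp and Frem1 but not for Hyal2, which was also called lower. It comes from the window before each RefSeq start (GRCm38.p6), written 5′ to 3′ along the gene, in lower case with motif matches in capitals, and bases of exons annotated by GENCODE were left out where they exceeded 30. For Frem1 only the bases upstream of the annotated gene start are printed, and the exon bases between them and the RefSeq start are not. The last 13 bases printed for Prelp lie in an annotated exon, and its motif match overlaps them in part.
Prelp, chr1:133921402-133921651, minus strand: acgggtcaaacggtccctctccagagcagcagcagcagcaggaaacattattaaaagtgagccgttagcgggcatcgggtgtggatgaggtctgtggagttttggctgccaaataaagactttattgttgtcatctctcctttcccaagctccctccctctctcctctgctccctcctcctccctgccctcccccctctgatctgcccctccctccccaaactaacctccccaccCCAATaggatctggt
Frem1, chr4:83052340-83052416, minus strand: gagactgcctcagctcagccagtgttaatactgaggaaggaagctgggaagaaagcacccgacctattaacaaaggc

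Motifs were searched on both strands. The GC box has the letters GGGCGG. The TATA box was searched as TATAAA. The CCAAT box is its own name. The whole window of 250 bases held 1 CCAAT box in Prelp and none of the 3 motifs in Frem1, which has a further RefSeq start downstream that is not shown. The window of Hyal2, of which 180 bases lie in annotated exons, held 1 GC box and no TATA or CCAAT box. Among all 32851 RefSeq windows of this length, 33.8% held the CCAAT box, 32.7% the GC box and 12.4% the TATA box. RefSeq entries were at hand for 32 of the 49 members. Frem1 spans chr4:82897920-83052339 (minus strand, mm10), Prelp chr1:133910304-133921414 (minus), Hyal2 chr9:107567945-107572779 (plus) and Fn1 chr1:71585520-71653200 (minus), and all are protein-coding.

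Frem1 encodes a basement membrane protein that anchors epithelia, known for its part with Fras1 and Frem2 in the developing skin. No read fell on Frem1 in the SVZ of any of the 5 ablated mice. In the controls, its level was 2.94, 0 and 0.0757 CPM in the NestinTK-GCV+ mice, then 4.96, 18.9 and 0 CPM in the NestinTK-PBS+ mice, and 27.4, 1.11, 0 and 0.907 CPM in the NestinTK+PBS+ mice. The 3 libraries rich in choroid plexus transcripts had the 3 highest values, and the groups overlapped at 0. With a floor of 3 counts per ablated library, the mean level was at least 15.3-fold lower than the control mean of 5.63 CPM (adjusted p = 0.350, edgeR). Against the 7 other controls, whose mean was 0.719 CPM, the bound was 1.96-fold, and the call was lost.

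Prelp encodes a small leucine-rich proteoglycan that ties basement membranes to the connective tissue beneath them. Its SVZ level was 46.1, 19.6, 55.5, 23.9 and 14.6 CPM in the ablated mice. It was 62.4, 37.2 and 40.9 CPM in the NestinTK-GCV+ mice, 89.4, 166 and 81.4 CPM in the NestinTK-PBS+ mice, and 222, 54.0, 45.2 and 61.7 CPM in the NestinTK+PBS+ mice. All 5 ablated mice lay below the control median of 62.1 CPM, although 2 of them lay within the control range. The log2 fold change was -1.43 (SE 0.45, adjusted p = 0.355, edgeR). The 3 libraries with over 1% of Ttr were again the highest, at a mean of 159 CPM against 54.7 ± 15.3 CPM (SD, n = 7) in the other controls and 31.9 ± 17.8 CPM (SD, n = 5) in the ablated mice. Without them the log2 fold change was -0.78 and not called. Of the Prelp exon bases, 9.68% overlap an antisense gene, and whether the counting used strand is not given in the sources used here.

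Hyal2 encodes a hyaluronidase of the cell surface, which cuts long hyaluronan chains. It was at 4.55, 1.95, 0, 4.16 and 2.23 CPM in the ablated SVZ. The NestinTK-GCV+ mice had 4.30, 15.0 and 7.95 CPM, the NestinTK-PBS+ mice 7.78, 28.6 and 7.04 CPM, and the NestinTK+PBS+ mice 15.5, 13.4, 8.34 and 27.6 CPM. Of the 10 controls, only NestinTK-GCV+ mouse 1 lay within the range of the ablated mice. The log2 fold change was -2.39 (SE 0.78, 95% interval -4.02 to -0.75, adjusted p = 0.373, edgeR). In Hyal2 the 3 Ttr-rich libraries overlapped the other controls, at 7.78 to 28.6 CPM against 4.30 to 27.6 CPM. Their mean was 17.3 CPM, against 11.9 CPM in the 7 other controls. Leaving out the Ttr-rich libraries gave a log2 fold change of -2.21, which no longer met the limit on p.

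Fn1 encodes fibronectin, a glycoprotein of plasma, vessels and injured tissue that binds integrins. Its SVZ level was 33.1, 58.0, 20.5, 27.0 and 46.1 CPM in the ablated mice, against 19.4, 21.9 and 11.9 CPM in NestinTK-GCV+, 20.1, 11.7 and 10.7 CPM in NestinTK-PBS+, and 13.1, 9.35, 27.5 and 36.3 CPM in NestinTK+PBS+ mice. All 5 ablated mice were above the control median of 16.3 CPM, with overlap between the groups. The log2 fold change was 1.02 (SE 0.36, adjusted p = 0.385, edgeR), just past the 2-fold limit, and the call was lost in 17 of 24 other settings. The highest ablated library, that of mouse 2, also had the highest sums of mural (207 CPM), blood (42.0 CPM), endothelial (521 CPM) and astrocyte (5793 CPM) markers of the SVZ. Without this library the log2 fold change was 0.80. The part of these markers in the Fn1 value was not tested.

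**Figure D1:**
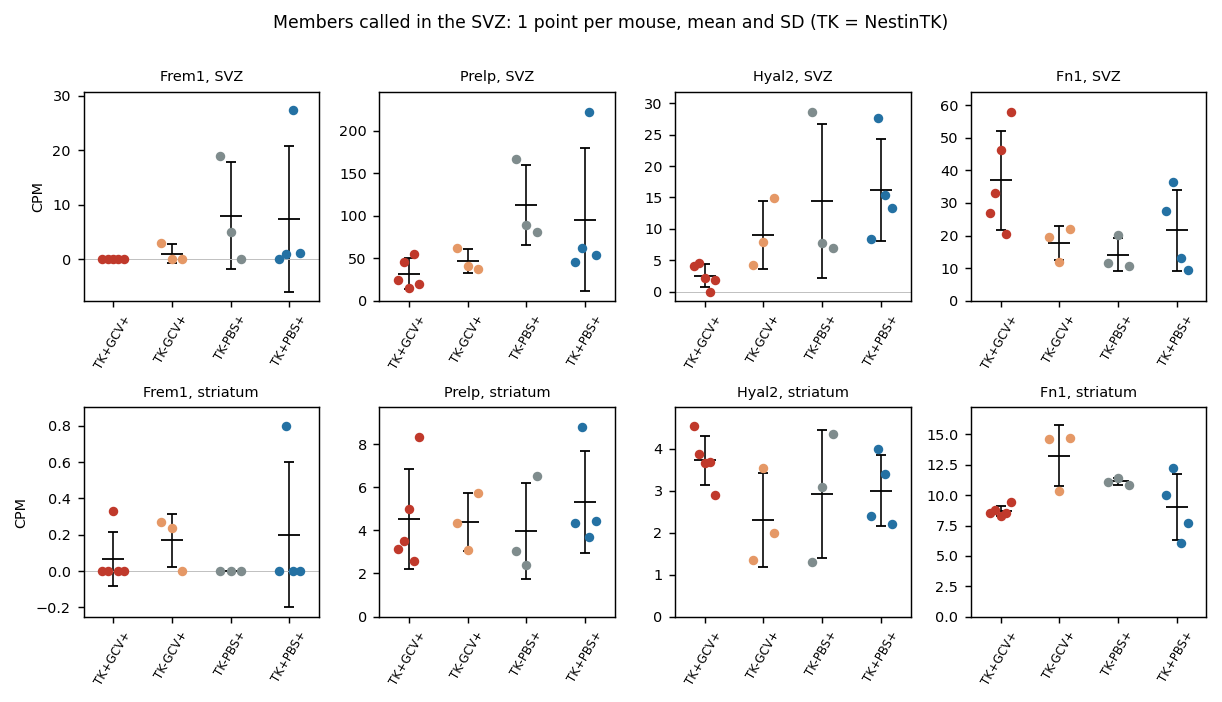
CPM (vertical axis, linear) of Frem1, Prelp, Hyal2 and Fn1 in each mouse (points) by group (horizontal axis, TK for NestinTK), with mean and SD, in the SVZ (top) and the striatum (bottom). In the SVZ the 5 ablated mice are all at 0 for Frem1 and at 4.55 CPM or less for Hyal2, and the 3 highest points of Frem1 and of Prelp are the Ttr-rich libraries of PBS mice.

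Of the 47 members tested, 3 were called lower, where 1.22% of all SVZ genes were, and 1 was called higher, where 0.373% were. No member had an adjusted p under 0.05 in edgeR (0.00611% of genes did, a single gene), where 8 members had an unadjusted p under 0.05, against 9.81% of all genes. DESeq2 called 5 members (the same 4 and Dcn) where it called 3% of all genes. Prelp, Frem1 and Hyal2 had an adjusted p under 0.05 in DESeq2, where 167 of the 16375 genes tested did. The limma-voom fit called Hyal2 alone, where it called 1.04% of genes. Without the 3 Ttr-rich libraries no member was called in edgeR, where 1.02% of all genes were, with 6 members at an unadjusted p under 0.05. No member separated all ablated from all control libraries (0.256% of genes did). The median log2 fold change was 0.02 over the 47 members and -0.03 over all genes tested.

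The small leucine-rich proteoglycans, which besides Prelp include decorin (Dcn), biglycan (Bgn) and lumican (Lum), had log2 fold changes below 0 in 6 of 6 members (median -1.10), of which 1 was called. Decorin, which binds collagen fibrils and growth factors, was at 0.120, 0, 3.79, 3.41 and 0 CPM in the ablated mice and 0.0717 to 34.02 CPM in the controls. Its mean was 1.46 ± 1.96 CPM in NestinTK+GCV+, 2.63 ± 3.84 CPM in NestinTK-GCV+, 14.7 ± 17.0 CPM in NestinTK-PBS+ and 12.7 ± 7.10 CPM in NestinTK+PBS+ mice (SD). The log2 fold change was -2.80 against all controls (SE 1.28, adjusted p = 0.490, edgeR) and -0.82 against the NestinTK-GCV+ mice alone. Biglycan was at 12.9 ± 11.2 CPM in the ablated (SD, n = 5) and 13.3 ± 17.5 CPM in the control mice (SD, n = 10), and lumican at 1.17 ± 2.15 and 1.91 ± 3.44 CPM. Markers of meningeal fibroblasts, 9 genes, summed to 208 to 481 CPM in the ablated and 159 to 1076 CPM in the control SVZ, and none of the 8 tested was called by edgeR; their part in the values was not tested. Lum, Fmod, Prelp and Ogn were each higher in all 3 Ttr-rich libraries than in every other control. The same was true of Lama5, Lamb2, Nid2, Thbs1 and Frem1, making 9 of the 47 members tested, where 3.53% of all genes tested did so. In these libraries the meningeal markers summed to 610.1 and 1076 CPM (NestinTK-PBS+ mice 1 and 2) and 954 CPM (NestinTK+PBS+ mouse 1), and the highest of the other controls, NestinTK-GCV+ mouse 1, was at 888 CPM.

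Across the laminins, trimers of an alpha, a beta and a gamma chain that form the sheet of a basement membrane, 5 of 9 had a log2 fold change below 0 and none was called. Lama1, the alpha chain of the pial and embryonic membranes, was at 0.120, 9.46, 0.367, 17.5 and 0.124 CPM in the ablated mice and 0 to 2.23 CPM in the controls. Ablated mice 2 and 4 were above every control, and the log2 fold change was 2.99 (SE 1.23, adjusted p = 0.431, edgeR). It was 1.86 without ablated mouse 4 and 2.71 without ablated mouse 2. Chains at higher levels differed less between the groups. Lamb1 was at 31.2 ± 22.9 CPM in the ablated (SD, n = 5) and 29.99 ± 17.6 CPM in the control SVZ (SD, n = 10), and Lamc1 at 24.1 ± 11.3 and 18.7 ± 8.82 CPM. Lama2, Lama4 and Lama5, alpha chains of muscle, vessel and epithelial membranes, were at 3.87 ± 4.02, 1.21 ± 2.21 and 13.4 ± 16.8 CPM in the ablated mice and 8.19 ± 5.44, 3.10 ± 4.94 and 11.1 ± 13.0 CPM in the controls. Among the linkers of the laminin sheet, perlecan (Hspg2) was at 7.83 ± 8.61 CPM in the ablated and 13.6 ± 12.5 CPM in the control mice, and agrin (Agrn) at 78.7 ± 39.5 and 72.6 ± 19.96 CPM.

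The lecticans had log2 fold changes above 0 in 4 of 4 members in the SVZ, and none was called. Brevican (Bcan), a lectican of astrocytes and of perisynaptic matrix, was at 325, 289, 386, 236 and 254 CPM in the ablated mice. Its controls ran from 185 through a median of 224 to 387 CPM. All 5 ablated mice were above that median, but NestinTK-PBS+ mouse 3 was the highest of all, and the log2 fold change was 0.30 (95% interval -0.05 to 0.66, adjusted p = 0.595, edgeR).

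Neurocan (Ncan), which is most abundant in the developing brain and persists in the adult, was at 180.4, 301, 203, 151 and 319.9 CPM in the ablated SVZ and at 148 to 256 CPM in the controls (median 182 CPM). Its log2 fold change was 0.26 (95% interval -0.14 to 0.65). Versican (Vcan), made among others by oligodendrocyte precursors, was at 20.8, 24.8, 39.8, 30.9 and 15.8 CPM, within the controls' 7.59 to 38.7 CPM (median 26.4 CPM) except for mouse 3. Its log2 fold change of 0.16 (SE 0.36) turned to -0.01 against the NestinTK+PBS+ mice alone and to -0.04 without ablated mouse 3.

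Aggrecan (Acan), the lectican that marks mature perineuronal nets, was scarce and uneven. It was at 10.4, 0.139, 7.33, 18.6 and 0.371 CPM in the ablated mice, and in the controls it ran from 0 through a median of 0.369 to 14.0 CPM, the last in NestinTK-PBS+ mouse 1. Thus 3 of 5 ablated mice were above at least 9 of 10 controls and the other 2 were above 5 of them. The log2 fold change was 1.84 (SE 1.29, 95% interval -0.85 to 4.53), and 3.54, still not called, without the 3 Ttr-rich libraries, which include that mouse. The sum of 6 fast-spiking interneuron markers overlapped between the groups, at 422 to 579 CPM in the ablated and 287 to 595 CPM in the control SVZ.

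The link protein Hapln1 was at 12.8, 18.8, 13.3, 13.3 and 17.6 CPM in the ablated SVZ, against 4.97 to 29.1 CPM in the controls (median 12.9 CPM). Hapln4, the link protein of brevican at inhibitory synapses, was at 17.6 ± 25.6 CPM in the ablated and 8.21 ± 10.2 CPM in the control mice. Each lectican gene has a link protein gene as a neighbour: Hapln4 lies 2222 bases from Ncan, Hapln1 43659 bases from Vcan, Hapln2 21519 bases from Bcan and Hapln3 2 bases from Acan. Neither link protein on the list was called in any edgeR contrast.

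Tenascin-C (Tnc), a glycoprotein of germinal zones and of reactive astrocytes, was at 4.67, 0, 2.57, 0 and 0 CPM in the ablated SVZ. The controls ran from 0 through 0.849 to 11.9 CPM, so that the groups overlapped at low levels, and its log2 fold change of -0.92 had an SE of 1.47. Tenascin-R (Tnr), made by oligodendrocytes and a cross-linker of the perineuronal net, was at 66.8, 82.4, 32.0, 39.7 and 43.5 CPM in the ablated mice and 18.9 to 102 CPM in the controls (median 35.2 CPM). Its log2 fold change was 0.37 (SE 0.36), and -0.27 against the NestinTK-GCV+ mice alone.

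**Figure D2:**
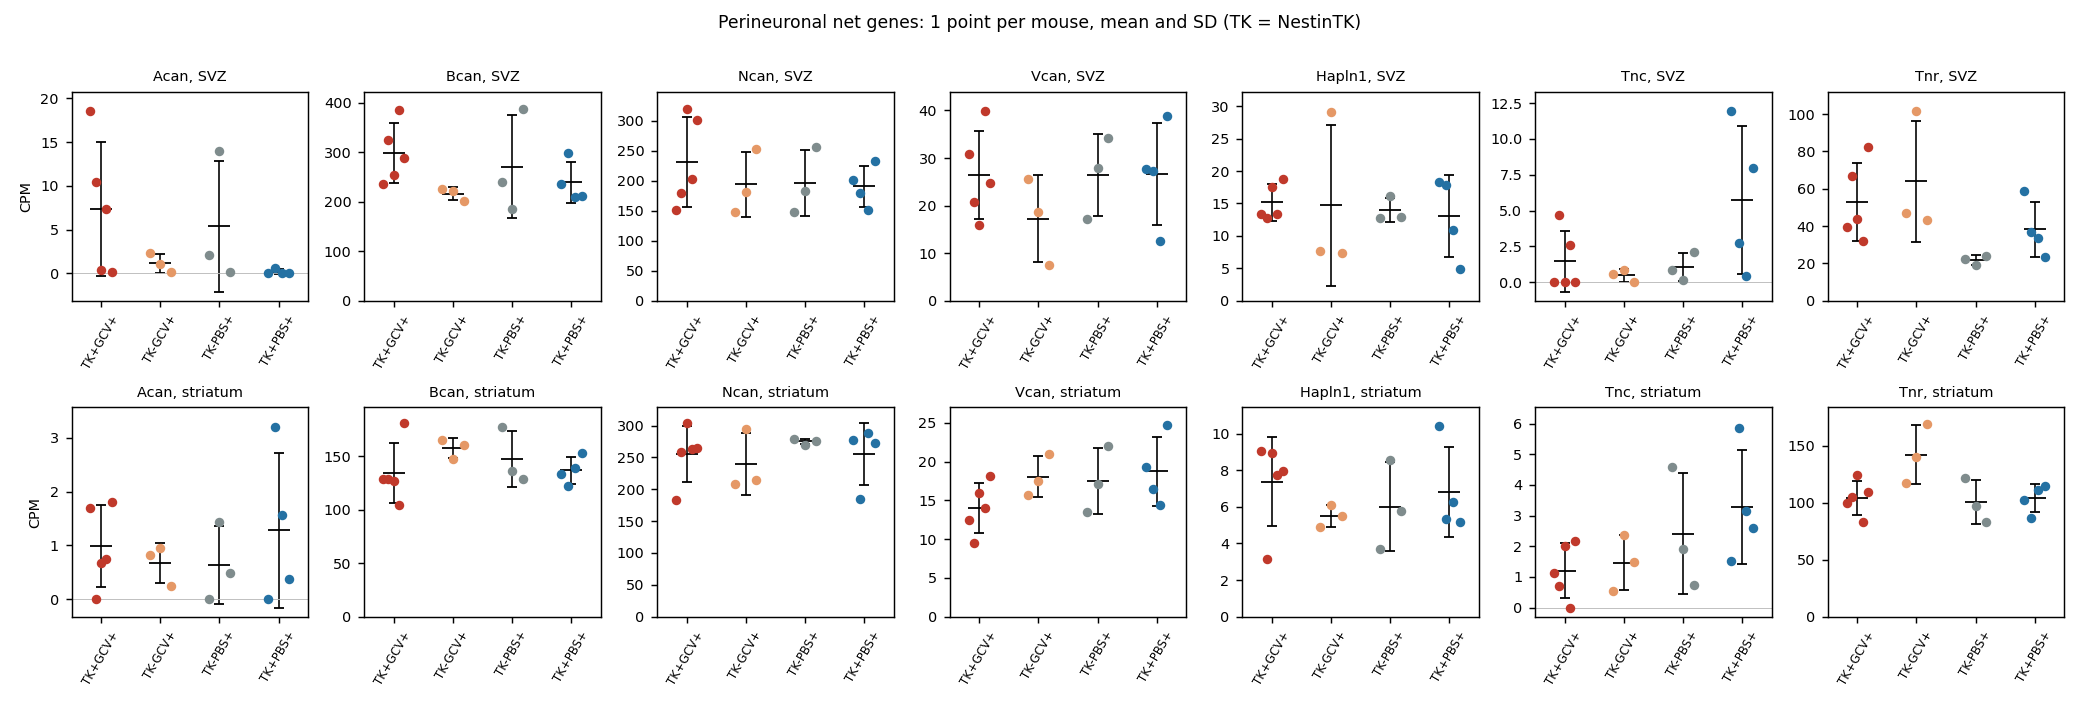
CPM (vertical axes, linear) of 4 lecticans, Hapln1, Tnc and Tnr in each mouse (points) by group (horizontal axis, TK for NestinTK), with mean and SD, in the SVZ (top) and the striatum (bottom). The ablated mice overlap the controls for each gene in both tissues, and SVZ Tnr in the NestinTK-PBS+ mice lies at 18.9 to 24.0 CPM, below the other groups except 1 NestinTK+PBS+ mouse at 23.7 CPM.

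Of the cell-surface proteoglycans, the glypicans are held by a lipid anchor and the syndecans span the membrane, and both carry heparan sulphate chains that bind growth factors. None of the 5 glypicans tested was called in the ablated SVZ. Of the 4 syndecans 3 had a log2 fold change below 0 (median -0.43) and none was called. Syndecan-1 (Sdc1), best known from epithelia, was at 0.121 ± 0.170 CPM in the ablated and 1.61 ± 2.38 CPM in the control mice, with 0.0717 ± 0.124 CPM in the NestinTK-GCV+ mice (log2 fold change -3.63 against all controls, SE 1.87). Sdc2 was at -0.48 (SE 0.25) and Sdc4 at -0.39 (SE 0.28) on the log2 scale. Syndecan-3 (Sdc3), a neuronal syndecan, had a log2 fold change of 0.70 (SE 0.28, adjusted p = 0.409, edgeR), and 0.31 without ablated mouse 2. The testicans Spock1, Spock2 and Spock3, secreted proteoglycans of neurons, all had values above 0, with Spock3 at 0.46 (SE 0.20, adjusted p = 0.448, edgeR). Sparc, a collagen-binding protein of glia and vessels, was at 252 ± 61.6 CPM in the ablated and 329 ± 75.6 CPM in the control mice, with all 5 ablated mice below the control median. Reelin (Reln), which guides neuronal positioning, was at 99.2 ± 43.9 and 71.9 ± 44.3 CPM, and thrombospondin-1 (Thbs1), a glycoprotein of astrocytes and platelets, at 5.10 ± 10.7 and 2.42 ± 3.60 CPM in the ablated and control mice. Sparcl1, a relative of Sparc made by astrocytes, was at 631 ± 273 CPM in the ablated and 553 ± 165 CPM in the control SVZ.

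**Figure D3:**
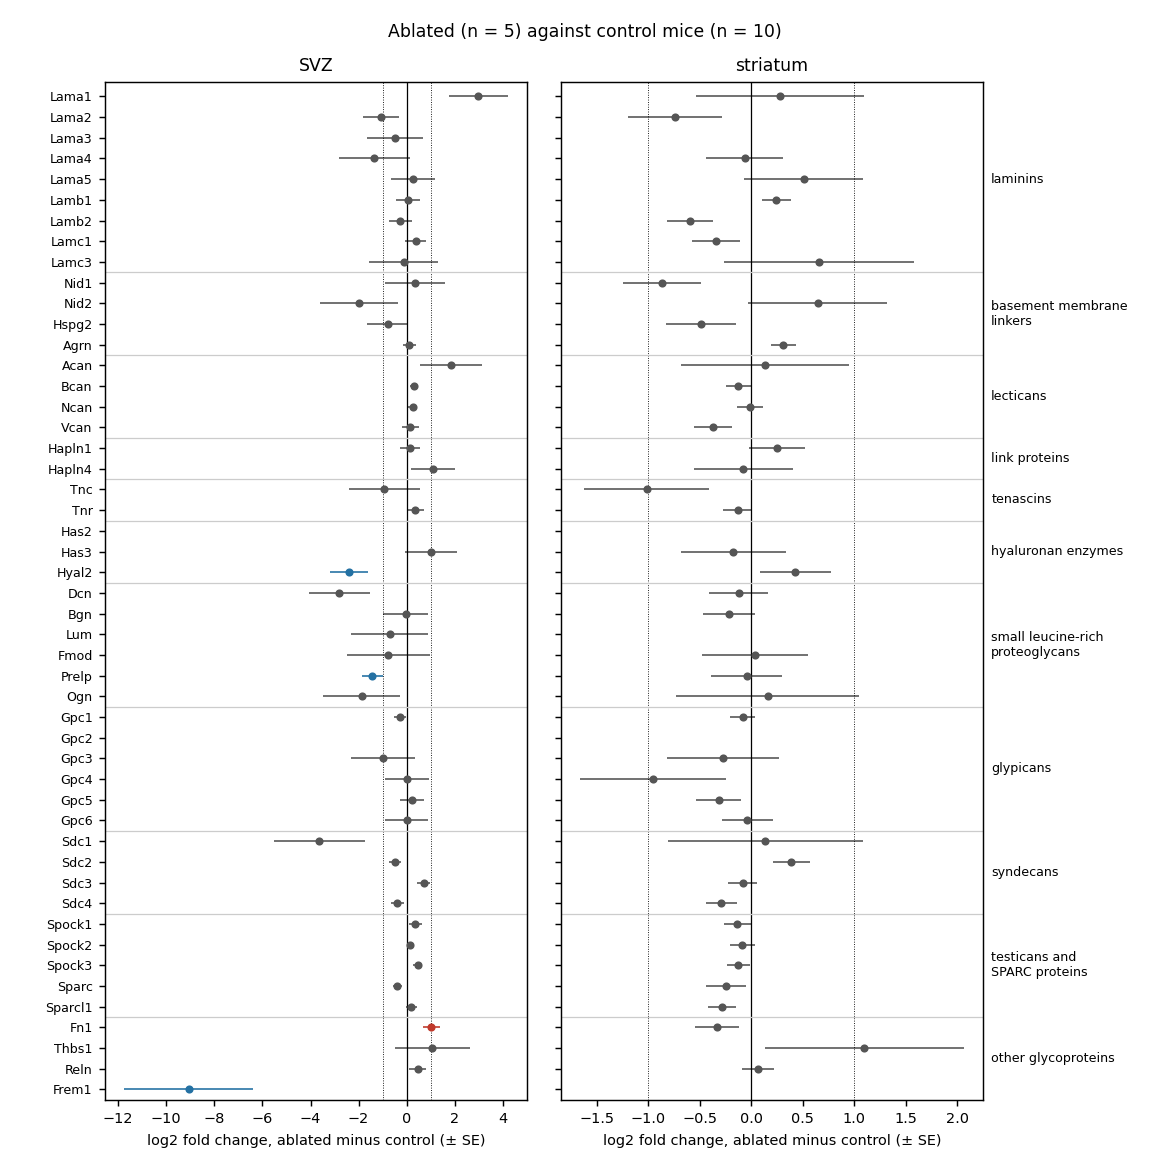
log2 fold change of the ablated (n = 5) against the control mice (n = 10) with its SE (horizontal axes, whose scales differ between tissues) for each member tested, by role (rows), in the SVZ (left) and the striatum (right), with the 2-fold limits dotted. Blue points mark members called lower and the red point the member called higher: Frem1 (a fitted value of -9.07, with all ablated libraries at 0), Hyal2 (-2.39), Prelp (-1.43) and Fn1 (1.02) in the SVZ, and none in the striatum.

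The SVZ libraries cover whole transcripts, so levels were also compared between genes as CPM per kilobase of exon, over the 10 controls. Sparcl1 (hevin), which takes part in synapse formation, led with 188 ± 56.1 CPM per kilobase (SD). Sparc followed at 86.9 ± 19.95, then Spock2 at 65.8 ± 10.7 and Bcan at 59.5 ± 14.6 CPM per kilobase, of which the last 2 did not differ beyond their SDs. Ncan was at 26.9 ± 5.75 CPM per kilobase. Acan, at 0.275 ± 0.572 CPM per kilobase, was among the lowest, above Lama4, Lama1, Gpc2 and Has2. The coefficient of variation of the level between control mice was 16.2% for Spock2, 24.6% for Bcan and 208% for Acan.

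**Figure D4:**
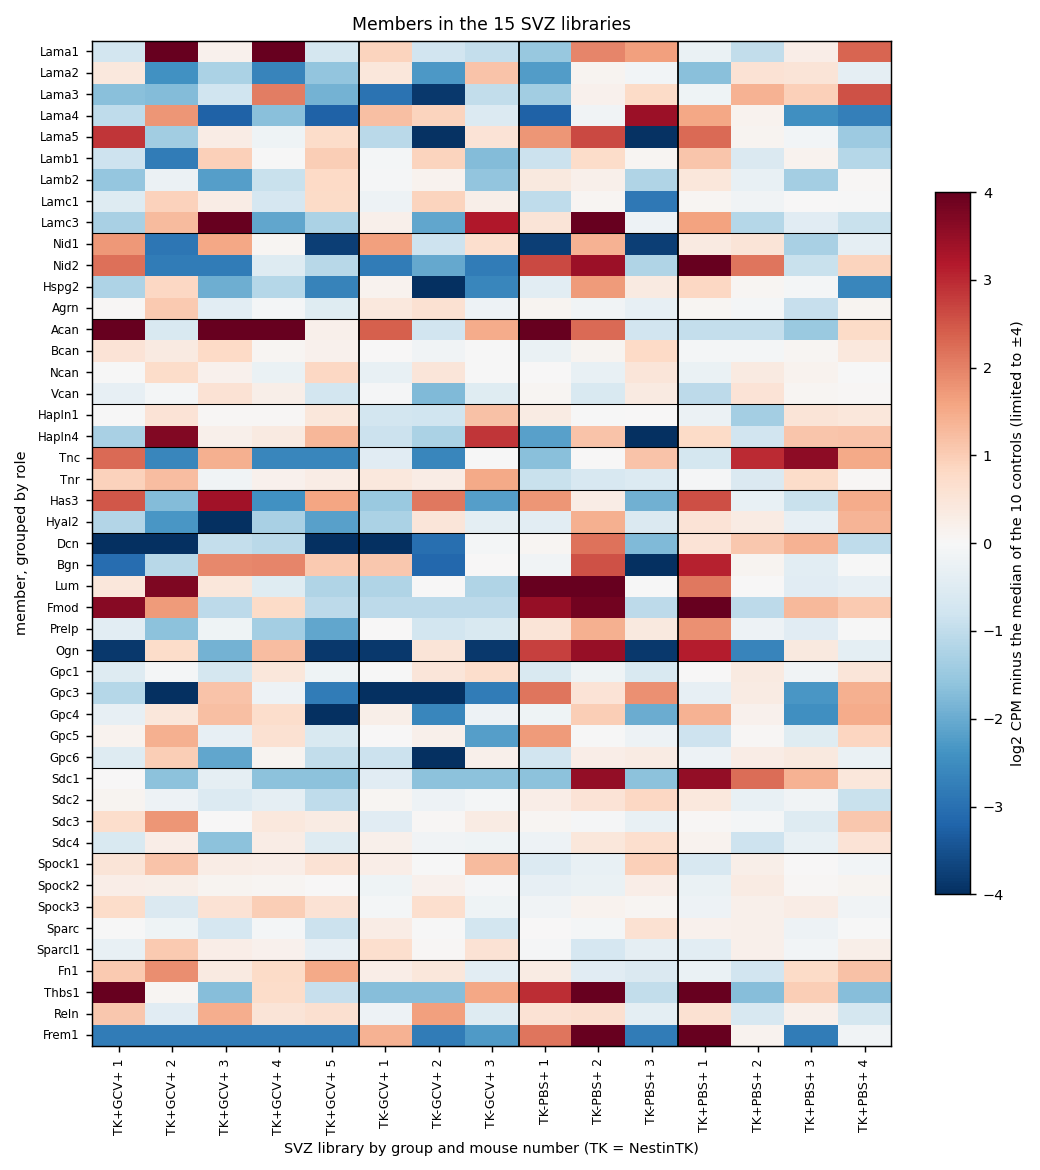
log2 CPM of the 47 members tested in the SVZ (rows, by role) in each of the 15 libraries (columns, by group), as the difference from the median of the 10 controls, in colour limited to 4 either way. The testicans, Sparc, Sparcl1, Bcan and Ncan are paler throughout, while Nid2, Ogn, Prelp and Frem1 are reddest in NestinTK-PBS+ mice 1 and 2 and NestinTK+PBS+ mouse 1.

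The 3 kinds of control allow each ablated comparison to be set beside the effect of drug or transgene alone. These contrasts share groups, so their values are given side by side. Against NestinTK-GCV+ mice, which had the drug without the transgene, no member was called in edgeR (0.94% of genes were), and 4 members had an unadjusted p under 0.05 (7.45% of genes). DESeq2 called Nid2 and Gpc3 higher there (2.66% of genes were called by it) and limma-voom none (1.17%). Against NestinTK+PBS+ mice, which had the transgene without the drug, Prelp, Hyal2 and Frem1 were called lower, where 0.965% of all genes were, and 7 had an unadjusted p under 0.05 (7.13% of genes). DESeq2 called the same 3 and Acan, which was higher (1.94% of genes), and limma-voom Hyal2 and Dcn (1.3%). With the floor of 3 counts, Frem1 was at least 20.02-fold lower than in NestinTK+PBS+ mice and at least 2.74-fold lower than in NestinTK-GCV+ mice. The first bound rested on NestinTK+PBS+ mouse 1, without which the mean of the other 3 mice was 0.673 CPM and the bound 1.84-fold. The second bound rested on NestinTK-GCV+ mouse 1 at 2.94 CPM, where the rest of its group had 0 and 0.0757 CPM.

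For Prelp the log2 fold change was -0.55 (SE 0.51) against NestinTK-GCV+ and -1.58 (SE 0.47) against NestinTK+PBS+ mice, and GCV alone gave -1.26 (SE 0.58). For Hyal2 the values were -1.81 (SE 0.94), -2.64 (SE 0.91) and -0.68 (SE 1.07) in the same order. All 3 calls against NestinTK+PBS+ mice were lost without NestinTK+PBS+ mouse 1 alone.

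GCV alone, NestinTK-GCV+ against NestinTK-PBS+ mice, gave 3 calls in the SVZ, with 2 members lower (0.794% of genes) and 1 higher (0.269%). An unadjusted p under 0.05 was found for 8 members (7.65%). The mouse number series largely goes with this contrast, and with those of the transgene alone and the interaction below. Its part in their values was not tested. Tnr was higher, at 47.2, 43.2 and 102 CPM under GCV and 18.9, 22.5 and 24.0 CPM under PBS (log2 fold change 1.55, SE 0.45, adjusted p = 0.646, edgeR). Without NestinTK-GCV+ mouse 3 it was 1.05, and the call was lost there and, at 1.46, without NestinTK-PBS+ mouse 1. The 6 cortical excitatory neuron markers summed to 696, 718 and 1409 CPM under GCV and 441, 451 and 629 CPM under PBS, and their part in the Tnr value was not tested. Nid2, a nidogen that links laminin to collagen IV, was lower, at 0, 0.110 and 0 CPM under GCV and 7.10, 12.1 and 0.330 CPM under PBS, with both high mice being Ttr-rich libraries. Gpc3, a glypican better known from growing tissues, was lower, at 0, 0 and 0.378 CPM against 16.5, 5.29 and 13.1 CPM. Leaving out the Ttr-rich libraries left 1 NestinTK-PBS+ mouse, assumed to vary like the other groups, and the fitted log2 fold changes were 1.40 for Tnr, -2.97 for Nid2 and -6.56 for Gpc3, none past the limit on p. DESeq2 called the same 3 with Fmod and Lum, both lower (2.64% of genes), and limma-voom the same 3 with Lum (1.61%).

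The transgene alone, NestinTK+PBS+ against NestinTK-PBS+ mice, gave no call among the members in edgeR (0.195% of genes), with 3 at an unadjusted p under 0.05 (2.69%). DESeq2 called Acan lower there (0.739% of genes) and limma-voom none (0.605%). The interaction of transgene and GCV gave 1 call, Gpc1 (0.391% of genes were called lower), with 4 members at an unadjusted p under 0.05 (5.09%). DESeq2 called Gpc1 lower and Acan, Lum and Gpc3 higher (1.53% of genes) and limma-voom none (0.922%). Gpc1, the main glypican of adult neurons, was at 58.2 ± 18.8 CPM in NestinTK+GCV+, 86.3 ± 21.2 CPM in NestinTK-GCV+, 47.0 ± 8.20 CPM in NestinTK-PBS+ and 74.1 ± 14.9 CPM in NestinTK+PBS+ mice (SD). The interaction was -1.22 on the log2 scale (SE 0.42, adjusted p = 0.942, edgeR), and the call was lost in 15 of 21 other settings, 11 of which left out 1 mouse. Of its exon bases, 18.9% overlap the antisense gene Ankmy1.

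In the striatum no member was called in the ablated mice in edgeR, DESeq2 or limma-voom, where 0.694%, 0.901% and 1.23% of all genes were called. No member had an adjusted p under 0.05 (0.182% of genes did), and 4 of 44 had an unadjusted p under 0.05, against 10.5% of all genes. These were Lamb2 (log2 fold change -0.59, SE 0.22), the beta chain of vessel and synaptic laminins, Nid1 (-0.87, SE 0.38), Agrn (0.31, SE 0.12) and Sdc2 (0.39, SE 0.18). The median was -0.08 over members and 0.00 over all genes, and no member separated the groups (0.532% of genes did).

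The striatal levels of the net genes overlapped between the groups throughout. Brevican was at 129, 181, 104, 129 and 127 CPM in the ablated mice and 123 to 178 CPM in the controls (median 143 CPM), with a log2 fold change of -0.13 (95% interval -0.38 to 0.12, adjusted p = 0.767, edgeR). Neurocan was at 258, 265, 263, 183 and 304 CPM against 184 to 295 CPM (median 274 CPM), with -0.01 (95% interval -0.27 to 0.25). For both, the interval leaves out a change of 2-fold in either direction.

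Versican was at 9.50, 18.1, 14.0, 12.5 and 15.9 CPM in the ablated striatum and 13.5 to 24.7 CPM in the controls (median 17.3 CPM). Only 1 ablated mouse was above that median, and the log2 fold change was -0.37 (SE 0.19, adjusted p = 0.489, edgeR). Hapln1 was at 3.17, 7.97, 7.76, 9.07 and 8.96 CPM against 3.70 to 10.4 CPM (median 5.65 CPM), with 0.25 (SE 0.27). Mouse 1 was apart from the other ablated mice, which were all above the control median.

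Aggrecan was near the limit of detection in the striatum, at 0, 1.81, 0.739, 1.70 and 0.664 CPM in the ablated mice and 0 to 3.20 CPM in the controls (median 0.649 CPM), where 1 count was worth up to 0.370 CPM. The highest control was NestinTK+PBS+ mouse 4, whose fast-spiking interneuron markers summed to 1479.6 CPM against 381 to 647 CPM in the other controls. The log2 fold change of Acan was 0.14 (95% interval -1.54 to 1.82). Tenascin-C was at 0.704, 2.17, 0, 1.13 and 1.99 CPM against 0.543 to 5.86 CPM (median 2.13 CPM), and its log2 fold change was -1.01 (SE 0.61, adjusted p = 0.594, edgeR).

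Tenascin-R was at 105, 109, 83.1, 99.5 and 124 CPM in the ablated striatum and 82.9 to 169 CPM in the controls (median 113 CPM), with a log2 fold change of -0.13 (SE 0.14). The NestinTK-GCV+ mice had the highest mean, at 117, 169 and 140.1 CPM, against 96.9, 122 and 82.9 CPM in NestinTK-PBS+ and 111, 114, 102 and 86.9 CPM in NestinTK+PBS+ mice. GCV alone gave 0.50 (SE 0.18, adjusted p = 0.145, edgeR), under the 2-fold limit. The cortical excitatory neuron markers summed to 3823, 2514 and 4364 CPM in these NestinTK-GCV+ mice and 1699, 2933 and 1877 CPM in the NestinTK-PBS+ mice, and their part was not tested. The ablated mice were at -0.45 (SE 0.16, adjusted p = 0.122, edgeR) against the same NestinTK-GCV+ mice and at 0.01 (SE 0.15) against the NestinTK+PBS+ mice. Thus the mean of Tnr was higher in NestinTK-GCV+ than in NestinTK-PBS+ mice in both tissues, which come from the same animals.

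Of the members called in the SVZ, Prelp was at 3.52, 8.33, 2.59, 3.12 and 4.98 CPM in the ablated striatum and 2.38 to 8.80 CPM in the controls. Hyal2 was at 3.87, 2.90, 3.70, 4.53 and 3.65 CPM against 1.31 to 4.35 CPM (median 2.74 CPM), so that all 5 ablated mice were above the control median there. Fn1 was at 8.80, 9.42, 8.50, 8.50 and 8.30 CPM against 6.03 to 14.7 CPM (median 11.0 CPM), all below it, and Frem1 had at most 3 counts in any striatum library. None of these was called, with log2 fold changes of -0.04 (SE 0.34) for Prelp, 0.43 (SE 0.35) for Hyal2 and -0.33 (SE 0.21) for Fn1.

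In the other striatal contrasts no member was called in edgeR. The background of genes called was 2.1% against NestinTK-GCV+, 1.35% against NestinTK+PBS+, 2.46% for GCV alone, 0.83% for the transgene alone and 3.28% for the interaction. Members with an unadjusted p under 0.05 numbered 4, 4, 3, 0 and 4 in that order, where 17.7%, 10.1%, 16.1%, 6.41% and 15.1% of genes did. DESeq2 called no member in any of them, where it called 2.34%, 1.41%, 2.61%, 0.863% and 3.43% of genes in the same order. For limma-voom these shares were 1.82%, 1.13%, 1.95%, 0.532% and 2.67%, and it called 1 member, Gpc3, higher for the transgene alone. Agrn, a heparan sulphate proteoglycan of basement membranes and synapses, was at 158 ± 28.3 CPM in the ablated mice against 111 ± 10.0 CPM in the NestinTK+PBS+ mice (log2 fold change 0.51, SE 0.13, adjusted p = 0.127, edgeR).

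Each mouse gave both tissues, so the ablation contrast was also compared between them within mice (limma on the striatum minus SVZ difference of log2 CPM, 44 members among 14197 genes). Of the members, 2 were called, where 2.15% of all genes were. Hyal2 differed by 3.15 (SE 0.85, adjusted p = 0.181, limma), from edgeR log2 fold changes of -2.39 in the SVZ and 0.43 in the striatum. Fn1 differed by -1.32 (SE 0.47, adjusted p = 0.312, limma), from 1.02 and -0.33. The Hyal2 call was kept in all 19 other settings tried, and the Fn1 call was lost in 11 of them. No member had an adjusted p under 0.05 in limma (0.00704% of genes did), and 8 had an unadjusted p under 0.05 (10.7% of genes). Prelp differed by 1.30 (SE 0.60, adjusted p = 0.430, limma) and was not called.

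The genes that work with the members were given by a second list of 104 partner genes, 103 of them in each table: matrix receptors, enzymes of glycosaminoglycan chains and other genes of the same families. In the SVZ 95 were tested, 1 was called lower and none higher, beside the 1.22% and 0.373% of all genes. That gene was Hmmr, a hyaluronan receptor that also acts at the mitotic spindle. It had 0.120, 0, 0, 0 and 0 CPM in the ablated mice and 0 to 7.34 CPM in the controls (adjusted p = 0.352, edgeR). The 7 dividing cell markers, of which 2 were called lower, summed to 7.92 to 33.97 CPM in the ablated and 15.6 to 149 CPM in the control SVZ; their part in the Hmmr value was not tested. None of the 44 enzymes tested was called in edgeR. Of the 95 partner genes 6 had an unadjusted p under 0.05, 4 of them enzymes, beside 9.81% of all genes. In the striatum, none of 93 partner genes was called in edgeR, with 11 at an unadjusted p under 0.05, beside 0.694% and 10.5% of all genes.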

How the data were processed

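The authors deposited 1 table of raw gene counts per tissue, not normalized. Per the labels and Methods, the SVZ kit was SMART-Seq v4 and the striatum kit QuantSeq 3′ FWD, and single-end reads were trimmed (Trimmomatic 0.36 in the submitters' processing notes), aligned with STAR 2.5.3a to mm10 and counted with featureCounts. Levels were therefore not compared between tissues. Counts were tested per tissue with edgeR 4.0.16 (TMM, quasi-likelihood, Benjamini-Hochberg over all genes tested) in R 4.3.3, where the study's methods name limma. Other contrasts came from a 4-group fit, and the tissue difference from limma 3.58.1. CPM are TMM-scaled. DESeq2 1.42.0, limma-voom, RLE factors, other filters, other control sets and leaving out mice were alternatives. Pairing comes from the mouse, and deviations of the same mouse correlated between tissues by -0.042 to 0.157 across genes. Annotation was GENCODE vM21.

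The members and lists were chosen with earlier results of these data known. Every mouse's values, or the lowest, median and highest for the 10 controls, were given for members called or not overlapping between ablated and control mice, and for Acan, Bcan, Ncan, Vcan, Hapln1, Tnc and Tnr. Members called elsewhere or at an unadjusted p under 0.05, and examples set for each class, were named with less detail, with counts for the rest. Mouse values of Dcn, Lama1, Nid2, Gpc3 and Hmmr were added after they were seen, as was Prelp in the tissue difference. Replicates are separate mice. The tests were tried on data simulated from the kind of model they assume, which cannot check that model. The common coefficient of variation between mice in edgeR was 0.94 in the SVZ and 0.25 in the striatum.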

Additional observations from a re-analysis of the deposited data

Results flagged for a closer look

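Among 54 sets of mice (the ablated group, the NestinTK+PBS+ group or the 10 controls, for each member given in full), 3 held a mouse far from the others by Dixon's criterion on log2 CPM, and chance alone flags about 1 in 20. Hyal2 in the SVZ was at 0 CPM in ablated mouse 3, below 1.95 to 4.55 CPM in the other 4. Ncan in the striatum was at 184 CPM in NestinTK+PBS+ mouse 4, whose spiny neuron markers were also the lowest of the striatum. Hapln1 in the striatum was at 3.17 CPM in ablated mouse 1, below 7.76 to 9.07 CPM in the other 4.

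In 3 cases an effect differed between settings of the study at a nominal p of 0.01 or less, none at an adjusted p under 0.05. The ablation contrast differed between striatum and SVZ by a log2 value of 3.15 for Hyal2 and of -1.32 for Fn1 (limma within mice). The effect of GCV on Gpc1 in the SVZ differed between NestinTK+ and NestinTK- mice by -1.22 (edgeR interaction).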

How the results depend on the processing

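Ablated against control SVZ gave 4 member calls. There was 1 in limma-voom, 1 with the mice whose numbers begin with 40 and 0 without the Ttr-rich libraries. Against NestinTK-GCV+ mice alone there were 0, and against NestinTK+PBS+ mice alone 2. Of all genes tested, 1.04%, 1.04%, 1.02%, 0.523% and 1.05% were called in these settings, in that order. With a mouse left out there were 1 to 4 member calls. There was 1, Frem1, without ablated mouse 2 or 5, and 2 without NestinTK-PBS+ mouse 2 or NestinTK+PBS+ mouse 1. Hyal2 lost its call without ablated mouse 2 or 5, NestinTK-PBS+ mouse 2 or NestinTK+PBS+ mouse 1 or 4 (-2.20 to -2.36), Prelp without ablated mouse 2, 4 or 5 (-1.23 to -1.33), and Fn1 without any mouse but ablated mice 3 and 4 and NestinTK+PBS+ mice 3 and 4.

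For the contrasts of this paragraph, the share of all genes called was taken only in the main fit, DESeq2 and limma-voom. Against NestinTK-GCV+ (0 calls) DESeq2 gave 2 and no filter 1, with 0 to 1 on leaving out mice (1 without NestinTK-GCV+ mouse 3). Against NestinTK+PBS+ (3) there were 0 without the Ttr-rich libraries and 0 to 4 on leaving out mice (0 without NestinTK+PBS+ mouse 1, 1 without ablated mouse 4). GCV alone (3) gave 5 in DESeq2, 5 with no filter, 1 without the Ttr-rich libraries (Lamc1; the lone NestinTK-PBS+ mouse is assumed to vary like the other groups) and 0 to 3 on leaving out mice (0 without NestinTK-PBS+ mouse 1, 1 without NestinTK-GCV+ mouse 2 or 3). The transgene alone (0) gave 1 in DESeq2 and 0 to 1 on leaving out mice (1 without NestinTK+PBS+ mouse 4). The interaction (1) gave 4 in DESeq2, 0 in limma-voom, 0 with RLE factors and 0 to 1 on leaving out mice (0 without ablated mouse 1 or 3, NestinTK-GCV+ mouse 2, NestinTK-PBS+ mouse 1 or NestinTK+PBS+ mouse 1 or 2), and the member called was not always Gpc1 (Bcan without the Ttr-rich libraries).

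In the striatum, ablation (0) gave 1 with no filter (Has2), where 1.41% of all genes were called. Has2 had at most 3 counts in any striatum library, with reads in 2 of the 5 ablated mice and in no control. The transgene alone (0) gave 1 in limma-voom (Gpc3) and 0 to 1 on leaving out mice. The interaction (0) likewise gave 0 to 1 on leaving out mice, and in both the 1 was Gpc3, without NestinTK-PBS+ mouse 1. The tissue difference (2) gave 1 without the mice with Ttr-rich libraries and 1 to 3 on leaving out mice (1, Hyal2, without ablated mouse 1, 2 or 5, NestinTK-GCV+ mouse 3, NestinTK-PBS+ mouse 2 or NestinTK+PBS+ mouse 2). With no replicate block, the tissues unpaired, it gave 2, Hyal2 and Fn1 again, and the pairing changed no other call.

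Over 38 single-gene results, 741 of 859 values kept their direction and side, 101 lost a call, 1 gained one (Dcn in DESeq2) and 16 turned. Vcan in the SVZ was -0.0099 against NestinTK+PBS+ mice alone (-0.037 to 0.30 on leaving out mice), and Tnr -0.27 against NestinTK-GCV+ mice. Striatal Acan was -0.36 with the mice numbered from 40 and -0.37 against NestinTK+PBS+ mice (-0.17 to 0.59), and Ncan 0.013 and 0.065 with the mice numbered from 40 and against NestinTK-GCV+ mice (-0.082 to 0.088). The cause was not tested.

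The mice numbered from 40 include no NestinTK-PBS+ mice, so GCV alone, transgene alone and interaction could not be fitted in them. Between control SVZ libraries the level of Acan varied with a coefficient of 208% and that of Tnc with 145%.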
